A study of Mus musculus with 26 samples.

Results

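The chemokine genes of mouse, with the genes of the receptors that read them, were followed in lacrimal glands as a Sjögren's syndrome-like disease developed. They were chosen by symbol alone, as every gene on the array whose symbol begins with Ccl, Ccr, Cxcl, Cxcr, Cx3cl, Cx3cr, Xcl, Xcr or Ackr and a number. Of 61 such symbols, 54 had a probe set (a group of short probes for 1 transcript) that names no other gene, among 18194 genes with such a probe set. These 54 genes were 33 ligands, 17 receptors and 4 atypical receptors. Where a gene had several probe sets, the one with the highest mean over all arrays stood for it. The other 7 symbols (Ccl19, Ccl19-ps1, Ccl21a, Ccl21b, Ccl21c, Ccl21d and Ccl27b) stand only on probe sets shared between genes.

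All glands came from male C57BL/6.NOD-Aec1Aec2 mice, which carry 2 intervals of the diabetes-prone NOD strain, Idd3 on chromosome 3 (Aec1) and Idd5 on chromosome 1 (Aec2), on the otherwise non-autoimmune C57BL/6 background. The groups are 4 arrays at 4 weeks (before disease), 6 at 8 weeks (early pre-clinical), 6 at 12 weeks (when leukocytes first enter the gland), 5 at 16 weeks (early clinical autoimmunity) and 5 at 20 weeks (when secretion starts to fail), with the stages as the series names them. Every group carried both intervals, and glands of a strain without them were not analysed here, so changes with disease and changes with age cannot be told apart. The titles call the arrays biological replicates, without saying whether each holds 1 animal or several, so the p-values cover only the variation among arrays.

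Chemokines are small secreted proteins that draw leukocytes along a gradient by binding receptors coupled to G proteins on their surface. The inflammatory ones call monocytes, neutrophils and activated T cells into tissue, whereas the homeostatic ones set up and maintain lymphoid tissue and the traffic through it. Atypical receptors bind chemokines without activating G proteins and shape how much ligand is left to read. In the exocrine glands of Sjögren's syndrome, chemokines are known from the foci of lymphocytes that gather around ducts.

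Levels below are log2 values of the deposited table, where 1 unit is 2-fold, and a level is compared only within 1 probe set. The median probe set of an array lay between 2.94 and 3.22, and an age mean under 4.04 is called near background. A difference between such a mean and one above that level is a lower limit. A linear model was fitted with limma to the 12377 genes above the array median on at least 4 arrays, with p-values adjusted by the Benjamini-Hochberg method over all of them and a threshold of 0.05. The lacrimal acinar list, genes of the secretory cells, had means of 10.47 to 11.24 on 24 of the arrays. Replicate 4 at 16 weeks and replicate 1 at 20 weeks stood apart, with acinar means of 7.71 and 8.81, a narrower spread of values (SDs of 1.68 and 1.36 log2 units, against 1.78 to 2.27 on the others) and lower correlations with their own ages (0.921 and 0.869). Results that rest on them are given with and without them, an alternative chosen after seeing the data. In bulk tissue, fewer cells of a type and less RNA per cell cannot be told apart.

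Most of the family was at or near background. Of the 54 genes, 14 had a mean above the near-background level at every age, 8 at some ages, and 32 at none. Ligands made up 11 of the 14, beside the receptors Ccr2 and Ccr9 and the atypical receptor Ackr2, by the probe set used for each. Other probe sets of Ccr9 read lower and are given below. The filter on low values kept 35 genes (25 ligands, 7 receptors and 3 atypical receptors), of which 13 were near background at every age. The other 19 were not tested, with means over all arrays between 1.25 and 3.02. They include the neutrophil receptor Cxcr2, the B cell homing receptor Cxcr5, and Cxcr3 of activated T cells.

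**Figure D1:**
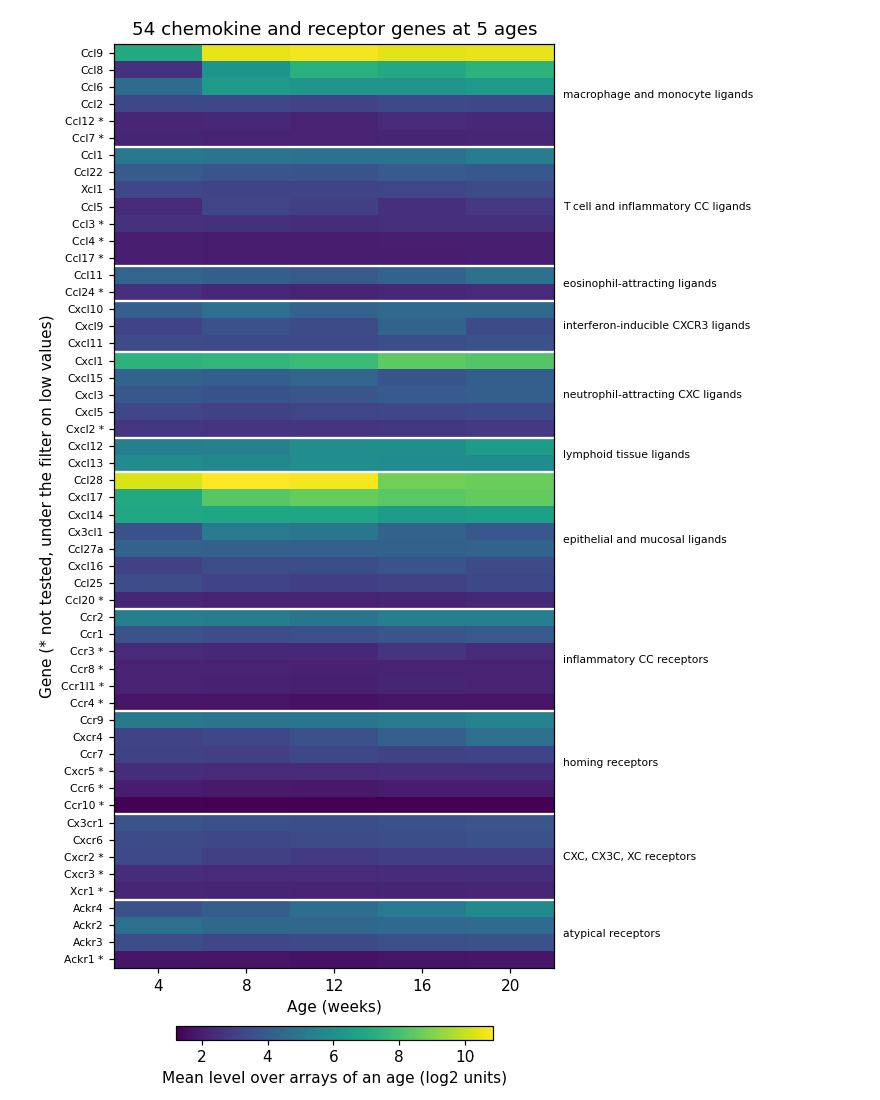
Mean log2 level of each of the 54 genes (rows, grouped by role) at 4, 8, 12, 16 and 20 weeks (columns), with genes marked * not tested. Colours are to be compared along a row, since probe sets differ in sensitivity. The rows of Ccl9, Ccl8 and Ccl6 change colour between the first column and the others, and most rows are dark throughout.

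Over the 5 ages, 3 of the 35 tested genes changed by the moderated F test, which is 8.57%, where 14.9% of all tested genes changed. They were Ccl9 (adjusted p = 0.000574), Ccl8 (adjusted p = 0.00443) and Cxcr4 (adjusted p = 0.0288). At an unadjusted p under 0.05, 14 of the 35 passed, where 36.9% of all tested genes did.

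Ccl9 and Ccl8, a pair of ligands grouped here by role with those of macrophages and monocytes, carried most of what passed. Ccl9 (MIP-1γ) is made by macrophages and other myeloid cells and acts on Ccr1, as does its close relative Ccl6, and mouse Ccl8 (MCP-2) acts on Ccr8. Ccl9 and Ccl6 are direct neighbours on chromosome 11 and run the same way, and Ccl8 lies in another cluster of the same chromosome. Their promoters are shown because, by the probe sets used, these 3 ligands had the largest differences of the family at 8 against 4 weeks. The RefSeq windows (build GRCm38.p6) run from 250 bases before the gene start to 50 after it, at chr11:83578587-83578886 on the minus strand for Ccl9, chr11:83593038-83593337 on the minus strand for Ccl6 and chr11:82114935-82115234 on the plus strand for Ccl8. Capitals mark every match, on either strand, to TATAAA (the TATA box), AGGAAG (a core bound by PU.1 and other ETS factors), TTCNNNGAA (GAS), the ISRE motif, TGANTCA (AP-1) or the kB motif.
Ccl9 promoter: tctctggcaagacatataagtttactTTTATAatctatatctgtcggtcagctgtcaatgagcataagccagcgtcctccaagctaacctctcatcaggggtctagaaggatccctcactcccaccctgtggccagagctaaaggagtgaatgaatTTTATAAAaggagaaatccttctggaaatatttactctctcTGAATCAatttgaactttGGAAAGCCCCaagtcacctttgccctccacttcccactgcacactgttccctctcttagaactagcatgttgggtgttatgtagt
Ccl6 promoter: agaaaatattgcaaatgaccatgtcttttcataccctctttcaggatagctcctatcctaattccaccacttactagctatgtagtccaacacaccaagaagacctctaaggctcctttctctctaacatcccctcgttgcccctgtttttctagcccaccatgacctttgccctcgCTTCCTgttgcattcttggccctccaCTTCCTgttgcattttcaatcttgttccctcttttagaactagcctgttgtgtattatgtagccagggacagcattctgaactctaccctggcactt
Ccl8 promoter: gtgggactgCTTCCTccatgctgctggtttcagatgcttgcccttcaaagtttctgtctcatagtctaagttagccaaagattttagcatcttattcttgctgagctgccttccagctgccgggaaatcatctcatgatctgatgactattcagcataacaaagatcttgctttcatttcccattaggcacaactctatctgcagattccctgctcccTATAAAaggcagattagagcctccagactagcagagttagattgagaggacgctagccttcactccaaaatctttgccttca
The Ccl9 window held TATAAA at -92 on its own strand and at -94 and -224 on the other (the first pair overlap), an AP-1 match at -53 and a kB match at -35. The Ccl6 window had no TATAAA and held AGGAAG on the other strand at -73 and -47. The longest run of bases shared by the Ccl9 and Ccl6 windows was 13. The Ccl8 window held TATAAA at -32 and AGGAAG on the other strand at -241. Of all 32851 windows in the RefSeq table, 13.6% held TATAAA, 35.4% AGGAAG, 8.3% TTCNNNGAA, 3.44% the ISRE motif, 7.81% TGANTCA and 4.5% the kB motif. Of the 41 of the 54 genes with a window, these motifs were found in 31.7%, 53.7%, 9.76%, 4.88%, 17.1% and 19.5% in the same order. A match is only a run of letters, and no binding was measured here.

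At 8 weeks the Ccl9 level lay between 9.67 and 11.02 (median 10.59), against 6.33, 7.10, 7.51 and 7.35 at 4 weeks. Every array at 8 weeks was above every array at 4 weeks. The difference was 3.41 ± 0.507 log2 units (SE, n = 6 and 4, limma adjusted p = 0.00078). At 12 weeks Ccl9 had a median of 10.74 (9.80 to 11.22), at 16 weeks values of 11.17, 11.12, 10.10, 8.63 and 11.12, and at 20 weeks 8.56, 10.58, 11.54, 10.76 and 11.19. The lowest value of each of the last 2 ages belongs to the array that stands apart, and both still exceed all 4-week arrays. The differences from 4 weeks were 3.60 at 12, 3.35 at 16 and 3.45 at 20 weeks (limma adjusted p = 0.000383, 0.00117 and 0.000955). No step between neighbouring ages after 8 weeks passed, the largest being 0.25 ± 0.476 units lower at 16 than at 12 weeks (limma adjusted p = 0.76).

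The other Ccl9 probe set passed at 8 weeks and not at 20 weeks. Its means were 4.23, 7.93, 7.39, 6.997 and 5.43 at 4, 8, 12, 16 and 20 weeks. In a fit over all 24712 probe sets above the filter, where 0.85% of probe sets changed at 8 against 4 weeks, its difference there was 3.69 ± 0.859 (limma adjusted p = 0.041). At 20 against 4 weeks it was 1.20 ± 0.892 (limma adjusted p = 0.544), with 4.15, 5.11, 6.503, 5.05 and 6.36 at 20 weeks overlapping 3.34, 4.04, 4.07 and 5.47 at 4 weeks. The Ccl9 difference at 20 weeks thus passed only with the probe set of higher signal. At 12 and 16 weeks the other probe set overlapped 4 weeks too. Its lowest arrays there read 4.79 and 4.08, under the 5.47 of replicate 4 at 4 weeks.

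Ccl8 was near background on all 4-week arrays and above it later. At 8 weeks it lay between 4.06 and 7.72 (median 6.46), against 2.58, 2.66, 2.61 and 2.60 at 4 weeks. The groups did not overlap, and the spread at 8 weeks covered more than 3 units. The difference was 3.57 ± 0.878 (SE, n = 6 and 4, limma adjusted p = 0.0424). At 12 weeks the median was 7.64 (6.49 to 7.82), at 16 weeks the values were 7.92, 7.81, 6.69, 5.11 and 7.53, and at 20 weeks 2.96, 8.18, 9.43, 8.43 and 8.25. Replicate 1 at 20 weeks, which stands apart, was the only later array within 0.5 units of the 4-week values. The differences from 4 weeks were 4.71 ± 0.878 at 12, 4.40 ± 0.912 at 16 and 4.84 ± 0.912 at 20 weeks (limma adjusted p = 0.00496, 0.0122 and 0.00667). Without both arrays that stand apart, the difference at 20 weeks was 5.96 ± 0.537 (limma adjusted p = 2.14e-07).

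The Ccl8 call at 8 weeks depends on single arrays. It was lost when any 1 of 14 arrays was left out (each of the 4 at 4 weeks, replicates 1 to 5 at 8 weeks, 6 at 12 weeks, 1, 3 and 5 at 16 weeks and 2 at 20 weeks), with adjusted p between 0.0511 and 0.121. At 12, 16 and 20 weeks it held without any 1 array. By the probe set used, the Ccl9 calls held in all of those fits at each age.

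Ccl6, which like Ccl9 attracts monocytes and macrophages, did not pass in the main fit. At 8 weeks it lay between 5.30 and 7.39 (median 6.57), against 4.46, 4.59, 4.68 and 4.81 at 4 weeks. The groups did not overlap, nor did 12 against 4 or 16 against 4 weeks. The differences from 4 weeks were 1.79 ± 0.617 at 8, 1.59 ± 0.617 at 12, 1.60 ± 0.641 at 16 and 1.78 ± 0.641 at 20 weeks (limma adjusted p = 0.178, 0.153, 0.252 and 0.166). At 20 weeks the values were 4.19, 5.76, 8.16, 7.39 and 6.60, and 4 of them were above all 4-week values while the array that stands apart (4.19) was below them all. Without both such arrays Ccl6 was higher at every later age, by 2.34 ± 0.539 at 20 weeks (limma adjusted p = 0.00878), and it changed at 20 weeks when replicate 1 alone was left out (adjusted p = 0.0169). Its other probe set, with means of 3.18, 4.54, 4.16, 5.06 and 5.36 at the 5 ages, changed at 16 weeks by 1.88 ± 0.435 and at 20 weeks by 2.18 ± 0.435 against 4 weeks (limma adjusted p = 0.025 and 0.00843 over all probe sets, of which 1.84% and 2.64% changed).

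**Figure D2:**
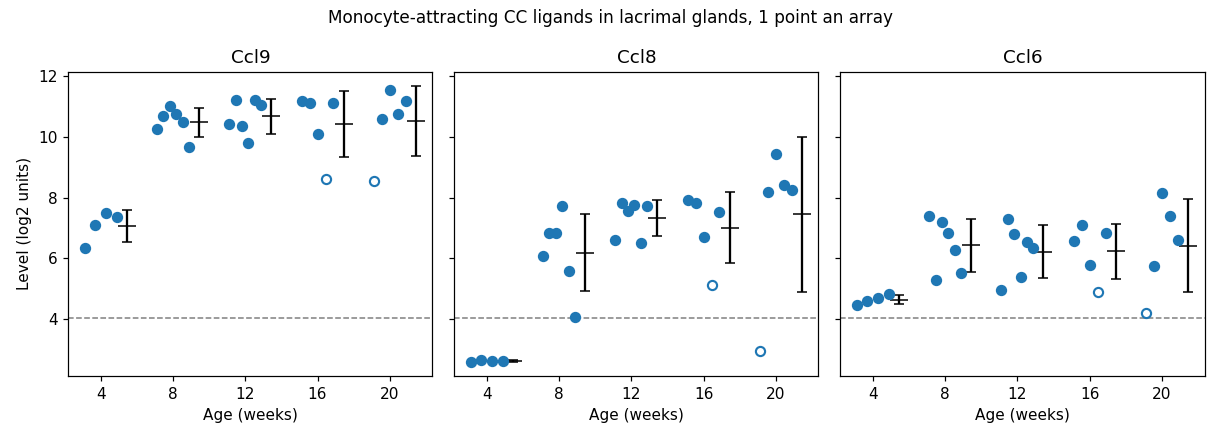
Level (log2 units) of Ccl9, Ccl8 and Ccl6 on each array against age in weeks. Points are arrays, open points the 2 arrays that stand apart (16 weeks replicate 4 and 20 weeks replicate 1), bars beside the points the mean ± SD, and the dashed line the near-background level of 4.04. The age mean of each gene is lowest at 4 weeks, and the open points lie at the bottom of the 16 and 20 week groups.

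No other monocyte ligand passed. Ccl2 (MCP-1), the classical ligand of Ccr2, was near background at every age, with arrays between 2.98 and 3.75. Ccl7 and Ccl12 were under the filter. Over the 4 tested genes of this group the median change at 8 against 4 weeks was 2.6 units, where that of all tested genes was 0.0317.

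Genes of macrophages and of leukocytes in general moved with Ccl9 and Ccl8. The mean of 12 macrophage genes per array lay between 6.40 and 7.07 at 8 weeks, against 4.67 to 5.24 at 4 weeks, and 6 of the 11 tested changed over the 5 ages, where 14.9% of all tested genes did. Among them, at 8 against 4 weeks, Lyz2 (lysozyme) was higher by 3.58 ± 0.516 and C1qa, C1qb and C1qc (complement C1q chains) by 3.94 ± 0.676, 2.53 ± 0.473 and 3.20 ± 0.55 (limma adjusted p = 0.00066, 0.00297, 0.00624 and 0.00297). The macrophage mean was 6.02 on replicate 4 at 16 weeks and 4.84 on replicate 1 at 20 weeks, the arrays where Ccl9 and Ccl8 were also low. Of 8 pan-leukocyte genes, 5 changed over the 5 ages, with Ptprc (CD45) higher by 2.93 ± 0.628 at 8 and by 3.89 ± 0.628 at 12 weeks against 4 weeks (limma adjusted p = 0.0205 and 0.00128). Of the plasma cell list, 2 of 5 tested genes changed over the 5 ages (2 at an unadjusted p under 0.05), and its mean lay between 6.77 and 7.55 at 8 weeks, against 6.02 to 6.27 at 4 weeks. Igha, the IgA heavy chain gene, was already 3.18 ± 0.599 higher at 8 than at 4 weeks (limma adjusted p = 0.00666). Of the T and B cell lists, limma called 0 of 5 T cell genes and 0 of 1 B cell gene tested over the 5 ages (0 and 0 at an unadjusted p under 0.05). The remaining cell type lists, beside high endothelial and lymphatic genes, had 0 of 1 NK, 0 of 5 dendritic, 0 of 6 eosinophil and mast cell, 0 of 4 endothelial, 2 of 7 fibroblast, 0 of 5 acinar, 0 of 6 salivary, 0 of 3 adipose and 1 of 4 keratinised skin genes called, and at an unadjusted p under 0.05 the numbers were 1, 0, 2, 2, 3, 0, 0, 0 and 1. For every list here, the shares over all tested genes were 14.9% called and 36.9% at an unadjusted p under 0.05. The part of the listed cell types in the Ccl9 and Ccl8 results was not tested.

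None of the tested receptors of these ligands passed at any age. Ccr1, which binds Ccl9 and Ccl6, was near background at every age, and its largest difference from 4 weeks was 0.25 ± 0.159 at 20 weeks (limma adjusted p = 0.49). Ccr8, which binds mouse Ccl8, was under the filter, with every array between 2.07 and 2.31. Ccr2, the monocyte receptor, averaged 5.33 ± 0.609 at 20 weeks and 5.32 ± 0.154 at 4 weeks (SD, n = 5 and 4), a difference of 0.01 ± 0.245 (limma adjusted p = 0.993). Another of its probe sets had means of 5.14 at 20 and 4.34 at 4 weeks and did not pass over the 5 ages either (adjusted p = 0.415).

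Cxcr4 was the receptor that changed. It binds Cxcl12 and holds lymphocytes, plasma cells and precursors where that ligand is made. At 20 weeks the values were 3.40, 4.87, 4.73, 5.88 and 5.01, against 3.11, 3.21, 3.34 and 3.13 at 4 weeks. All 5 exceeded all 4, the lowest by under 0.1 units, and that lowest array is the one that stands apart. The difference of 1.58 ± 0.422 (SE, n = 5 and 4, limma adjusted p = 0.0495) is a lower limit, since 4-week glands were near background. At 8 weeks the median was 3.23 (3.06 to 3.79) and at 12 weeks 3.20 (3.13 to 4.44), where replicates 4 and 6 stood at 4.44 and 4.41. At 16 weeks the values were 4.79, 4.17, 5.28, 3.21 and 3.36, so 3 arrays were above background and 2 near it. The difference at 16 against 4 weeks was 0.96 ± 0.422 (limma adjusted p = 0.306).

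Cxcl12 (SDF-1), the ligand of Cxcr4 and a product of stromal cells, had its highest mean at the same age. At 20 weeks it stood at 5.28, 6.04, 7.66, 7.06 and 6.53, against 5.43, 5.81, 5.07 and 5.11 at 4 weeks. The groups overlapped through the array that stands apart, and the difference of 1.16 ± 0.365 did not pass (limma adjusted p = 0.101). Without that array it did (adjusted p = 0.00971), and without both it was 1.47 ± 0.32 (limma adjusted p = 0.00578). Over 38 alternative fits the difference ran from 0.51 to 1.47 and passed in 5 (limma adjusted p between 0.00212 and 0.46). Cxcl12 has 3 probe sets, and in the fit that averaged a gene's probe sets it did not pass. Ackr3, the atypical receptor that takes up Cxcl12, was near background throughout and did not change.

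Ackr4 (CCRL1), the atypical receptor that removes Ccl19, Ccl21 and Ccl25 from tissue, was higher at 20 than at 4 weeks. At 20 weeks it stood at 3.69, 5.61, 6.92, 5.53 and 7.23, against 3.39, 3.78, 3.78 and 3.42 at 4 weeks. Of the 20-week arrays, 4 were above all at 4 weeks, and the array that stands apart lay among them. The difference was 2.21 ± 0.589 (SE, n = 5 and 4, limma adjusted p = 0.0495), again a lower limit, and 2.73 ± 0.529 without both arrays that stand apart (adjusted p = 0.00223). The age means were 3.59, 4.15, 4.68, 5.14 and 5.80 at 4, 8, 12, 16 and 20 weeks, and the F test over the 5 ages missed the threshold (limma adjusted p = 0.0543). A second probe set had 2.04 ± 0.494 at 20 against 4 weeks (limma adjusted p = 0.0281 over all probe sets). Its other ligand with a probe set of its own, Ccl25, was near background at every age (adjusted p = 0.698 at 20 against 4 weeks).

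Both calls at 20 weeks are close to the threshold. The Cxcr4 call was lost without any 1 of 21 arrays (adjusted p between 0.0507 and 0.16) and was kept only without replicates 1 or 4 at 12 weeks, 3 or 4 at 16 weeks, or 1 at 20 weeks. The Ackr4 call was lost without any 1 of 21 arrays too (adjusted p between 0.0508 and 0.166) and was kept only without replicate 6 at 8 weeks, 1 or 2 at 12 weeks, 4 at 16 weeks or 1 at 20 weeks. Over the 5 ages, Cxcr4 was lost without replicate 2, 3 or 4 at 20 weeks (adjusted p between 0.0548 and 0.0748).

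Other measures of the same arrays are given beside these genes. The high endothelial and lymphatic list covers vessels through which leukocytes enter lymphoid tissue and leave it. Its mean lay between 3.69 and 4.23 at 20 weeks, against 3.31 to 3.58 at 4 weeks. Of its 5 tested genes, limma called 0 over the 5 ages, and 3 had an unadjusted p under 0.05. For all tested genes the shares were 14.9% and 36.9%. At 4 and 20 weeks Pdpn averaged 4.05 and 6.36, and Glycam1 3.76 and 4.11. Madcam1, Chst4, Lyve1 and Prox1 averaged 2.63, 2.755, 3.26 and 4.25 at 4 weeks and 2.69, 2.90, 3.38 and 4.345 at 20 weeks. Flt4 averaged 3.54 at 4 weeks and was lower at 20 weeks, at 3.28. Adipose genes averaged 6.04 on replicate 1 at 12 weeks and 6.38 and 6.64 on replicates 1 and 2 at 16 weeks, where Ackr4 stood at 6.04, 5.70 and 6.11. At 20 weeks the adipose means were 3.13 to 3.88 and Ackr4 was above 6.11 on 2 of the 5 arrays. The actin probe sets, whose 3' minus 5' difference grows with RNA breakdown or with short copies, differed by 2.73 to 4.97 at 20 weeks, against 1.87 to 4.10 at 4 weeks. The highest actin values at 16 and 20 weeks (5.71 and 4.97) were those of the 2 arrays that stand apart, with replicate 3 at 16 weeks close by at 5.60. The Gapdh probe sets differed by 2.05 to 3.08 at 20 weeks, against -0.08 to 3.83 at 4 weeks. On the arrays that stand apart, Gapdh differed by 1.62 at 16 weeks, where the range was 1.47 to 2.80, and by 3.08 at 20 weeks. The 2 measures thus ranked the 16-week array differently. The part of these measures in the Cxcr4 and Ackr4 results was not tested.

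The promoters of these 2 genes are shown for comparison with the ligands. The windows lie at chr1:128592250-128592549 for Cxcr4 and chr9:104126594-104126893 for Ackr4, both on the minus strand of GRCm38.p6, with capitals as above.
Cxcr4 promoter: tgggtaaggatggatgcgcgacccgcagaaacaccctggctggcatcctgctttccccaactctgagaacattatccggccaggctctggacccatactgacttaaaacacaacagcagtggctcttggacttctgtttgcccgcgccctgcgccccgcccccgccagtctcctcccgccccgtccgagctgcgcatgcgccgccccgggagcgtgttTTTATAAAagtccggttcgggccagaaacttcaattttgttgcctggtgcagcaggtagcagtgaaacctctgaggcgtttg
Ackr4 promoter: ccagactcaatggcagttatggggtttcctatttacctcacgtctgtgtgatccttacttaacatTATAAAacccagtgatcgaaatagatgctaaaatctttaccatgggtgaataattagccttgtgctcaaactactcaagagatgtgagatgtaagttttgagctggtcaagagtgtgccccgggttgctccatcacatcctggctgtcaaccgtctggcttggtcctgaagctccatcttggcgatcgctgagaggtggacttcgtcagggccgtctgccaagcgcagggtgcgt
The Cxcr4 window held TATAAA at -30 and, overlapping it on the other strand, at -32. The Ackr4 window held TATAAA at -185. None of the other 5 motifs was found in these 2 windows.

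**Figure D3:**
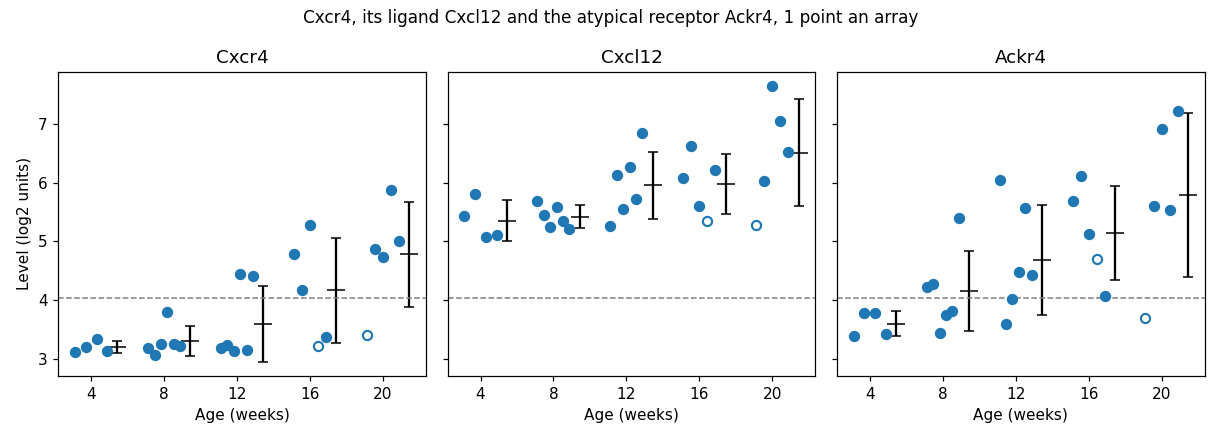
Level (log2 units) of Cxcr4, Cxcl12 and Ackr4 on each array against age in weeks, drawn as for the ligands above (points arrays, open points the 2 arrays that stand apart, bars mean ± SD, dashed line 4.04). The 4-week points lie close together, and at least 4 of the 5 points at 20 weeks lie above all 4-week points in each panel.

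The chemokines of organised lymphoid tissue were raised on 1 array. Cxcl13 draws B cells through Cxcr5, and Ccl19 and Ccl21 draw T cells and dendritic cells through Ccr7. On replicate 4 at 12 weeks, the Ccl19 probe set read 7.65, against 3.32 to 4.29 on the other 25 arrays, and the Ccl21 probe set 8.16, against 2.79 to 4.12. Cxcl13 read 6.77 there, against 5.06 to 6.14, and its second probe set read 7.39 where the other arrays had 2.26 to 3.26. Ccr7 stood at 4.09, against 2.83 to 3.84, while Cxcr5 at 2.35 was within the range of the others, 2.33 to 2.66. The same array had the highest means of the B cell list (4.29, against 2.57 to 2.98), the T cell list (4.02, against 2.83 to 3.37), the dendritic cell list (3.88, against 2.89 to 3.43) and the pan-leukocyte list (8.997, against 4.12 to 7.03). The dendritic cell list includes Ccr7 and Xcr1, so its mean partly repeats the Ccr7 value. This array also had the highest mean of the salivary gland list (11.05, against 4.21 to 10.04).

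As group differences these genes did not pass. Cxcl13 had a difference of 0.27 ± 0.155 between 12 and 8 weeks (limma adjusted p = 1) and of 0.03 ± 0.18 between 20 and 4 weeks (adjusted p = 0.971). The F tests over the 5 ages gave adjusted p = 0.605 for the Ccl19 and 0.66 for the Ccl21 probe set, in the fit over all probe sets. Both name further loci besides the Ccl19 or Ccl21 copies, so their signal cannot be given to 1 gene. What the array's gland held beside lacrimal tissue was not tested.

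**Figure D4:**
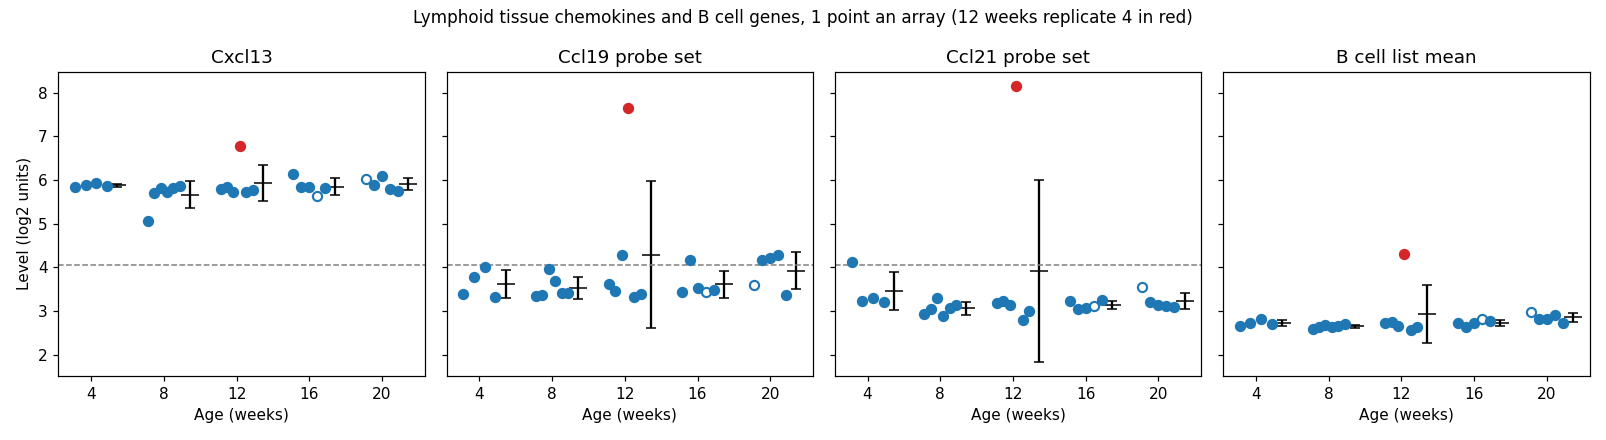
Level (log2 units) of Cxcl13, of the probe sets shared by the Ccl19 and by the Ccl21 copies, and the mean of 8 B cell genes, on each array against age in weeks. The red point is replicate 4 at 12 weeks, which lies above all other arrays in each panel, open points are the arrays that stand apart, bars are mean ± SD, and the dashed line is 4.04.

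The neutrophil group gave a result that depends on the probe set. Cxcl1 (KC) draws neutrophils through Cxcr2. By the probe set used, Cxcl1 stood at 8.83, 8.34, 8.62, 7.94 and 8.50 at 16 weeks, against 7.27, 7.42, 7.72 and 7.28 at 4 weeks. The groups did not overlap, and the difference of 1.02 ± 0.333 did not pass (limma adjusted p = 0.129). A second Cxcl1 probe set read 8.70, 8.06, 6.17, 5.20 and 7.50 at 16 weeks, against 2.80, 2.91, 2.91 and 3.28 at 4 weeks. Its differences from 4 weeks were 3.32 at 8, 2.94 at 12, 4.15 ± 0.862 at 16 and 3.34 ± 0.862 at 20 weeks (limma adjusted p = 0.0578, 0.0659, 0.0123 and 0.0382 over all probe sets). The 16 and 20 week differences passed, in the same direction as those of the probe set used. At 8 weeks the second probe set read 4.63 to 7.42 and at 12 weeks 4.03 to 7.23, above all 4-week arrays each time. In the alternative fit of genes without probe sets ending in _x_at or _s_at, limma called Cxcl1 at 8, 16 and 20 against 4 weeks. It did not call Cxcl1 at 12 against 4 weeks there. Of all probe sets, 13% changed over the 5 ages and 2.05% at 12 against 4 weeks.

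The rest of that group was low. Cxcl3 moved by 0.27 ± 0.141 at 20 against 4 weeks (limma adjusted p = 0.387). Cxcl15 (lungkine, a mouse epithelial chemokine) was 0.56 ± 0.338 lower at 16 than at 4 weeks (adjusted p = 0.531). Cxcl5 was near background at every age, and Cxcl2 and Cxcr2 were under the filter. Of 2 tested neutrophil marker genes, limma called 0 over the 5 ages (0 at an unadjusted p under 0.05).

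The interferon-inducible ligands of Cxcr3, which bring in activated T cells, did not pass at any age. Cxcl9 was at 3.17, 6.10, 3.15, 6.05 and 3.16 at 16 weeks, against 3.13, 3.18, 3.21 and 3.10 at 4 weeks. By this probe set it was high on 2 of 5 arrays and near background on 3. One of the high arrays is replicate 4, which stands apart. The difference of 1.17 ± 0.563 did not pass (limma adjusted p = 0.373). A second Cxcl9 probe set read 3.32, 3.22, 3.30, 3.31 and 3.355 on the same 16-week arrays, without the 2 high values. Cxcl10 had a median of 4.47 at 8 weeks (4.03 to 5.92), against 4.19, 4.32, 4.40 and 3.79 at 4 weeks, with adjusted p = 0.356. Cxcl11 stayed near background. Of 11 tested genes of the interferon gamma response, 1 changed at 16 against 4 weeks, where 1.78% of all tested genes did. This was the GTPase gene Gbp2, by 2.64 ± 0.647 (limma adjusted p = 0.0351), and Gbp2 is also the only one that changed in any of the 7 comparisons.

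No ligand of the role group of T cell and inflammatory CC ligands passed. Ccl8, which acts on Ccr8, is counted with the monocyte ligands and not in this group. Ccl5 (RANTES) lay between 2.44 and 3.91 at 8 weeks (median 3.37), against 2.34, 2.38, 2.48 and 2.34 at 4 weeks, all near background (adjusted p = 0.203). The differences of Ccl22 were at most 0.26 units in any comparison. Ccl1 was above the near-background level at every age and Xcl1 near background, and neither was called. Ccl3, Ccl4 and Ccl17 were under the filter. Ccl11 (eotaxin), which draws eosinophils, stood at 4.18, 4.69, 6.21, 4.69 and 4.45 at 20 weeks, against 4.40, 4.61, 4.35, 3.86 and 3.92 at 16 weeks, and the difference of 0.61 ± 0.285 did not pass (adjusted p = 0.593).

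Of the 8 epithelial and mucosal ligands, Ccl28, Cxcl17, Cxcl14 and Ccl27a were above the near-background level at 4 weeks and at every later age. Ccl28 (MEC) is made by mucosal and glandular epithelium and brings IgA plasma cells to it. At 20 weeks it stood at 5.54, 9.14, 9.02, 10.07 and 9.69, against 10.57, 9.78, 10.04 and 10.79 at 4 weeks. At 16 weeks it stood at 9.40, 10.12, 9.71, 4.03 and 10.77, against a median of 10.77 (9.74 to 11.65) at 12 weeks. The arrays at 5.54 and 4.03 are the 2 that stand apart, where acinar genes were low as well. The differences of 1.60 ± 0.958 lower at 20 than at 4 weeks and 1.90 ± 0.864 lower at 16 than at 12 weeks did not pass (limma adjusted p = 0.455 and 0.212). The mean of the salivary gland list ran between 4.21 and 11.05 over the arrays, and Ccl28 was 10.93 on replicate 5 at 8 weeks and 9.78 on replicate 2 at 4 weeks, where that mean was 4.21 and 5.04.

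Cxcl17, a mucosal chemokine, was low on 3 of the 4 arrays at 4 weeks. It lay between 7.97 and 8.70 at 8 weeks (median 8.25), against 8.59, 6.75, 6.33 and 6.56 at 4 weeks. Replicate 1 at 4 weeks overlapped with the later groups. At 20 weeks it stood at 6.34, 8.77, 9.39, 9.05 and 9.05, and the difference of 1.46 ± 0.641 from 4 weeks did not pass (limma adjusted p = 0.284). Without both arrays that stand apart it passed at every later age, by 1.27 ± 0.313 at 8, 1.53 ± 0.313 at 12, 2.02 ± 0.343 at 16 and 2.01 ± 0.343 at 20 weeks (limma adjusted p = 0.0225, 0.00369, 0.000698 and 0.00067). Leaving out replicate 4 at 16 weeks alone gave adjusted p = 0.0336 at 16 weeks, and leaving out replicate 1 at 20 weeks alone gave 0.0425 at 20 weeks.

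Cx3cl1 (fractalkine), a membrane-bound ligand that can also be shed, was spread widely at 8 and 12 weeks. It lay between 3.61 and 6.20 at 8 weeks (median 5.46) and between 3.60 and 6.17 at 12 weeks (median 5.25), against 3.61, 3.65, 3.28 and 3.82 at 4 weeks. At 20 weeks it stood at 3.39, 3.44, 3.65, 3.52 and 5.18. The difference at 8 against 4 weeks was 1.64 ± 0.539 (limma adjusted p = 0.154) and that at 20 against 4 weeks 0.25 ± 0.56 (adjusted p = 0.892). Another Cx3cl1 probe set read 3.02 to 5.11 at 8 and 3.02 to 3.67 at 12 weeks, against 3.03, 3.11, 3.13 and 4.49 at 4 weeks. A further Cx3cl1 probe set lay between 3.025 and 3.155 on every array. Cx3cr1, the receptor of Cx3cl1, was near background at every age. Cxcl14 was between 6.06 and 8.14 on all arrays and moved by at most 0.47 units, and Cxcl16 by at most 0.57 units, with no call.

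The remaining tested genes were called in no comparison. Ccr9, the receptor of Ccl25 on gut-homing T cells, averaged 5.50 ± 0.548 at 20 weeks and 5.13 ± 0.286 at 4 weeks (SD, n = 5 and 4), a difference of 0.37 ± 0.226 (SE, limma adjusted p = 0.463). Other Ccr9 probe sets read lower, at 2.87 to 3.33, 2.66 to 4.66 and 3.24 to 4.14 over the arrays. Ackr2, which takes up inflammatory CC chemokines, was at most 0.35 units lower, at 12 against 4 weeks (limma adjusted p = 0.183). Ccl27a, an epithelial ligand of Ccr10, lay between 4.06 and 4.48 on all arrays, and Cxcr6, the receptor of Cxcl16, between 3.15 and 3.98. Under the filter, and so not tested, were also Ccl20, Ccl24, Ccr1l1, Ccr3, Ccr4, Ccr6, Xcr1 and Ackr1.

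Across the family, the number of genes that passed differed little between the comparisons with 4 weeks. At 8 against 4 weeks, 2 of 35 rose (Ccl9 and Ccl8) and 0 fell, where 1.36% of all tested genes changed, 1.14% rose and 0.218% fell. At 12 against 4 weeks the same 2 rose, where 2.71% changed, 2.16% rose and 0.549% fell, and at 16 against 4 weeks again these 2, where 1.78% changed, 1.08% rose and 0.695% fell. At 20 against 4 weeks 4 rose (Ccl8, Ccl9, Ackr4 and Cxcr4), where 2.21% changed, 0.897% rose and 1.31% fell. With only the arrays of 20 and 4 weeks in the fit, limma called 0 of these 4 (adjusted p = 0.134 for Ccl9, 0.286 for Ccl8, 0.296 for Cxcr4 and 0.332 for Ackr4), with the same differences. At an unadjusted p under 0.05, 5, 10, 8 and 8 of the 35 passed at 8, 12, 16 and 20 against 4 weeks, where 14.1%, 21.8%, 13.3% and 14.6% of all tested genes did. These comparisons share the 4-week arrays, so they are not independent of each other.

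Between neighbouring ages after 8 weeks, limma called 0 of the 35 genes. At 12 against 8 weeks 0.0162% of all tested genes changed, at 16 against 12 weeks 2.98%, and at 20 against 16 weeks 0.0162%. At an unadjusted p under 0.05, 0, 5 and 1 of the 35 passed in these comparisons, where 4.96%, 20.9% and 8.14% of all tested genes did.

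At 20 against 4 weeks, 29 of the 35 differences were above 0, with a median of 0.208, where 52.4% of all tested genes were above 0, with a median of 0.0107. This count leans in part on the arrays that stand apart. Without both, the differences of Ccl1, Ccl2, Ccl27a, Ccr2 and Ccr7 fell below 0 (-0.025, -0.015, -0.019, -0.213 and -0.052), and none moved from below 0 to above it. The counts by sign and by highest age in this paragraph are those with all arrays. At 8 against 4 weeks it was 14 of 35, with a median of -0.0713, where 52.5% of all were above 0, with a median of 0.0317. The counts at 12 and 16 against 4 weeks were 18 and 23, where 56.3% and 47.3% of all were above 0. Between neighbouring ages they were 17 at 12 against 8 weeks (57% of all), 24 at 16 against 12 weeks (46.6%) and 27 at 20 against 16 weeks (52.1%). The age with the highest mean was 20 weeks for 16 of the 35 (45.7%), where it was 20 weeks for 28.7% of all tested genes. Of the 35, 18 had age means within 0.5 units of each other and 11 spanned at least 1 unit.

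**Figure D5:**
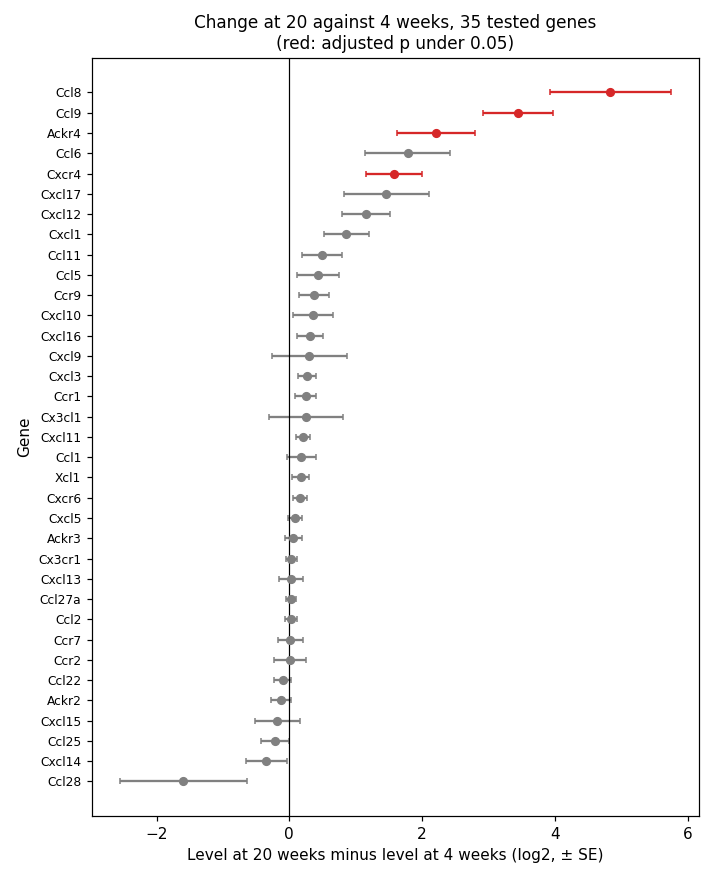
Difference in level (log2 units, 20 weeks minus 4 weeks) with its SE for each of the 35 tested genes, sorted by size, with 5 arrays at 20 weeks and 4 at 4 weeks. Red points (Ccl8, Ccl9, Ackr4 and Cxcr4) passed at an adjusted p under 0.05, and Ccl28 lies lowest at 1.60 below 0 without passing.

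Without both arrays that stand apart, more of the family passed, and so did more genes in all. The F test over the 5 ages called 9 of the 35 (Ackr4, Ccl28, Ccl6, Ccl8, Ccl9, Cxcl1, Cxcl12, Cxcl17 and Cxcr4), where 20.8% of all tested genes changed. Against 4 weeks, 4 genes rose at 8 weeks (4.88% of all changed) and 4 at 12 weeks (12.1%), each time Ccl6, Ccl8, Ccl9 and Cxcl17. At 16 weeks 6 rose (7.8%), these 4 with Cxcl1 and Cxcr4, and at 20 weeks 8 (8.25%), these 6 with Ackr4 and Cxcl12. Between neighbouring ages 0 of the 35 passed at 12 against 8 (0.0646% of all), 16 against 12 (4.05%) and 20 against 16 weeks (0.0808%). All of these rises had the sign they have with every array in the fit, and 0 of the 35 fell against 4 weeks.

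Of 19 tested genes of chemokine signalling inside the cell, 3 changed over the 5 ages, a share near the 14.9% of all tested genes. Rgs2, which shortens G protein signals, was 3.31 ± 0.687 higher at 16 and 2.60 ± 0.687 higher at 20 than at 4 weeks, and Arrb1 (β-arrestin 1, which takes receptors off the surface) was 1.52 ± 0.401 higher at 12 than at 4 weeks (limma adjusted p = 0.0122, 0.048 and 0.0422). The list's median difference at 20 against 4 weeks was 0.0736, where that of all genes was 0.0107. Of 9 tested genes of leukocyte adhesion and transmigration, Vcam1, which holds leukocytes to endothelium, was 1.98 ± 0.481 higher at 12 and 2.43 ± 0.5 higher at 16 than at 4 weeks, and F11r (a tight junction protein) was 1.72 ± 0.323 lower at 16 than at 12 weeks (limma adjusted p = 0.0287, 0.0117 and 0.0121). Of 8 tested genes of lymphotoxin and alternative NF-kB signalling, the pathway that drives Cxcl13, Ccl19 and Ccl21 in lymphoid tissue, Relb was 1.45 ± 0.349 higher at 8 and 1.42 ± 0.349 higher at 12 than at 4 weeks and 1.22 ± 0.328 lower at 16 than at 12 weeks (limma adjusted p = 0.0379, 0.0296 and 0.0472). Of 10 tested genes that cut or present chemokines, 1 passed in a comparison, the protease gene Adam17, which sheds Cx3cl1, at 1.03 ± 0.265 lower at 16 than at 12 weeks (limma adjusted p = 0.0402). Of 5 tested chemokine genes whose symbols are outside the naming rule, such as Pf4, 0 passed in any comparison and 1 over the 5 ages. In the F test over the 5 ages, 2 of the 9 adhesion, 2 of the 8 lymphotoxin and 1 of the 10 cutting or presenting genes changed. Of all tested genes, 14.9% changed over the 5 ages. Against 4 weeks, 1.36%, 2.71%, 1.78% and 2.21% of all changed at 8, 12, 16 and 20 weeks. At 16 against 12 weeks it was 2.98%.

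Ccl28 attracts IgA plasma cells, and 2 of the 5 tested plasma cell genes rose at 20 against 4 weeks, where 0.897% of all tested genes rose. The list median was 0.736, where that of all tested genes was 0.0107. Igha was 5.14 ± 0.623 higher and Jchain, which joins IgA, 4.82 ± 0.667 higher at 20 than at 4 weeks (limma adjusted p = 5.1e-05 and 0.00038). Ccr10, the receptor through which IgA plasma cells read Ccl28, was under the filter.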

How the data were processed

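Gene expression was measured in lacrimal glands on 26 Affymetrix arrays, grouped by the age in each array's title. The authors deposited 1 table of log2 expression for 45101 probe sets. The submitters' processing notes name RMA and GCRMA, methods that correct background, normalise between arrays and summarise probes, without saying which made these values. The values were used as deposited. Precision is limited by how many arrays each age has.

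Gene names came from the annotation of the platform: 34958 had 1 gene symbol, 932 several and 9211 none. Genes above their array's median on at least 4 arrays were kept (12377 of 18194). limma 3.58.1 in R 4.3.3 fitted a mean per age over all 26 arrays without covariates (lmFit, eBayes), with an F test and 7 two-sided contrasts, later minus earlier age, with Benjamini-Hochberg adjustment across all kept genes. The fit was tested on simulated data.

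The family, the gene lists of cell types and pathways, and the tests were chosen with earlier results of these data known. Genes named are those that passed in any test, the 5 highest and 5 lowest differences per comparison, the 8 with the highest means, partners of those that passed, and up to 4 genes per other list that passed. Others are named to account for the family. Same-numbered arrays of different ages were not taken as pairs. Alternatives tried were quantile normalisation, centring, other filters and probe sets, trend and robust variance, array weights, a replicate block, only the ages compared, and leaving out each array. Further ones, added after seeing the data, were leaving out both arrays that stand apart, array spread as a covariate, and a test of every probe set.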

Additional observations from a re-analysis of the deposited data

Results flagged for a closer look

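For each of 27 named genes at each of 5 ages, the highest and the lowest array were compared with the rest of their group, and in 23 of 135 groups 1 array lay far from the others. Chance flags about 1 in 20 groups. Both arrays that stand apart are among them: replicate 4 at 16 weeks was low for Ccl28 (4.03) and Cxcl17 (5.59), and replicate 1 at 20 weeks was low for Ccl28 (5.54), Cxcl17 (6.34) and Ccl8 (2.96) and high for Ccl25 (4.02). Replicate 4 at 12 weeks was high for Cxcl13 (6.77), the array with raised B cell and T cell genes.

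Replicate 2 at 16 weeks was high for Ccl5 (3.18), Ccr2 (5.80) and Cxcl10 (4.97) and low for Ackr2 (4.23). Replicate 1 at 16 weeks was high for Ackr3 (3.96) and Ccl22 (4.49). Both of these arrays had high means of the adipose list (6.64 and 6.38), whose part in these values was not tested. At 20 weeks, replicate 3 was high for Ccl11 (6.21), replicate 4 for Ackr3 (3.88) and replicate 5 for Cx3cl1 (5.18).

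At 8 weeks, replicate 1 was high for Cxcl14 (8.14) and low for Cxcl13 (5.06), replicate 4 was high for Cxcr4 (3.79) and replicate 6 for Ccl25 (3.78). At 12 weeks, replicate 1 was high for Ccl25 (3.27). At 4 weeks, replicate 3 was high for Ccl22 (4.31) and replicate 4 for Cxcl15 (5.56).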

How the results depend on the processing

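Among 108 comparisons of single named genes, 4050 repeats under the alternatives lost 72 calls, gained 113 and reversed 0. With quantile normalisation 7 genes of the family changed over the 5 ages and 1 at 8 against 4 weeks. Centring left 2 at 20 against 4 weeks, and no filter left 1 at 8 and 2 at 20 weeks. Averaging all probe sets of each gene gave 8 over the 5 ages. Array weights gave 21 over the 5 ages, 11, 12, 9 and 10 at 8, 12, 16 and 20 against 4 weeks, 5 at 16 against 12 and 1 at 20 against 16 weeks, with a weight of 10.9 on replicate 2 at 4 weeks against at most 3.08 on any other array. The replicate block left 1 at 8 (Ccl9) and 2 at 20 weeks (Ccl8 and Ccl9), and it changed no other count by more than 1.5 times. The numbers do not pair the arrays: of 32 same-numbered pairs, 9 correlated above 0.1 (range -0.477 to 0.426). With only the arrays of the ages compared 0 passed at 20 weeks (limma adjusted p = 0.134 for Ccl9), against 4 with all arrays; the causes of these shifts were not tested. Without both arrays that stand apart the counts were 9 over the 5 ages and 4, 4, 6 and 8 at 8, 12, 16 and 20 against 4 weeks, and with array spread as a covariate 7 over the 5 ages and 7 at 20 weeks. Shares over all tested genes are given above for the fit without both arrays, but not for the other fits named so far. The counts of those fits thus do not show a change particular to the family. Leaving out each array in turn gave 2 to 8 over the 5 ages, 1 to 2 at 8, 2 to 2 at 12, 2 to 3 at 16 and 2 to 7 at 20 against 4 weeks, and 0 in each of the 3 comparisons between later neighbouring ages. The counts over all tested genes moved too in these fits, between 1380 and 2952 over the 5 ages and between 61 and 417, 123 and 1082, 92 and 637, and 73 and 722 at 8, 12, 16 and 20 against 4 weeks. The 8 came without replicate 1 at 12 weeks and the 7 at 20 weeks without replicate 1 at 20 weeks.

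Signal over background limits what the 32 genes near background at every age can show. For them, no call does not show that the gene was unchanged. The differences of Ccl8 and Ackr4 from 4 weeks, and those of Cxcr4 at 16 and 20 against 4 weeks, are lower limits. Age and disease cannot be told apart without a control strain.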
